A study of Mus musculus with 20 samples.

Results

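Megakaryocyte-erythroid progenitors (MEP) sorted from the bone marrow of mice labelled as double knockouts of Bcor and Dnmt3a were compared with MEP of wild-type mice. The members were chosen by sample, as the 2 MEP libraries labelled Bcor-/-Dnmt3a-/- (double knockout, DKO) and the 3 labelled wt (WT), which are 5 of the 20 libraries of the series. Of the 24315 genes in the MEP table, 11218 had a mean of at least 1 FPKM (fragments mapped to a transcript, divided by its length and by the size of the library) over these 5 libraries and were tested. All mice were C57BL/6 and each library came from 1 mouse. The study made the DKO mice by crossing conditional alleles of both genes with Mx1-Cre, whose promoter answers to interferon and was induced with pIpC, and the WT mice are described as carrying untargeted genes. The MEP gate was Lin-/Sca1-/Kit+CD34- with low or no Fc gamma receptor II/III. The study calls the DKO mice used for RNA-seq leukemic, while the labels give neither age nor disease stage.

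MEP are the bipotent cells of the marrow that give rise to red cells and to megakaryocytes, the cells that shed platelets. Gata1 and Klf1 drive their erythroid genes, and heme synthesis, globins and the red cell membrane proteins follow as the cells mature. Bcor is a subunit of the PRC1.1 Polycomb complex, which marks the histone H2A at CpG islands, and Dnmt3a places new methyl groups on CpG sites; both are tumor suppressors in the myeloid lineage.

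The DKO libraries were checked against their labels before any comparison. Bcor RNA had 19.6 FPKM in DKO 1 and 26.7 in DKO 2, against 26.9, 21.3 and 22.4 in WT replicates 1 to 3. Bcor RNA was thus below the WT range in DKO 1 by a small margin and within it in DKO 2. The study describes the mRNA of the deleted allele as extremely unstable, although it keeps its polyA tail. Its PCR detected no Bcor mRNA in LSK cells (Lin-/Sca1+/Kit+) of Bcor-/- mice. In LSK of the DKO mice, Bcor was above the WT range of 29.5 to 32.4 FPKM in DKO 2, at 37.4. It was below that range in DKO 1. The whole-gene level of DKO 2 thus showed no loss of Bcor RNA in MEP or in LSK. A level over the whole gene does not resolve the deleted exons, so whether they were deleted was not tested. Dnmt3a RNA had 6.85 and 3.44 FPKM in DKO 1 and DKO 2, against 6.11, 5.49 and 6.64 in WT, so that DKO 2 was below the WT range and DKO 1 above it. The Dnmt3a level of DKO 1 in MEP thus does not show the loss that its label names. In LSK of the same mice Dnmt3a had 10.4 and 10.9 FPKM in DKO 1 and DKO 2, below the 16.1 to 19.8 of WT. Whole-gene levels leave both genotypes unchecked, and DKO 1 and DKO 2 stand for the libraries labelled so throughout. All 5 libraries came from male mice by their Y-linked genes and the near absence of Xist. Of the genes for the gate's surface proteins, Kit, the receptor for stem cell factor, had 38.1 and 20.2 FPKM in DKO 1 and DKO 2 against 77.0 to 83.5 in WT (log2 difference -1.51 ± 0.28 (SE), adjusted p = 0.0392). The Fc gamma receptor gene Fcgr3 had 63.9 and 27.9 FPKM against 1.21 to 4.54 in WT (log2 difference 3.79 ± 0.54, adjusted p = 0.0280). Both genes moved away from the gate's definition in both DKO libraries. Il7r, a lymphoid receptor gene, had 162.9 FPKM in DKO 1 and 4.31 in DKO 2 against 3.12 to 3.77 in WT, so it stood apart in DKO 1 alone.

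The sequencing depth of the libraries is unknown, since read counts are not given. From the steps between values under 0.2 FPKM, relative depth ran from 1 in WT replicate 1 to 1.44 in WT replicate 2, with both DKO libraries between them. The median log2 ratio of a library to the mean of each gene was -0.03 at the lowest and -0.01 at the highest. Over the 11218 genes the WT libraries correlated with each other at a Pearson r of 0.973 to 0.983 on log2(FPKM + 1). DKO 1 correlated with the WT libraries at 0.821 to 0.826 and DKO 2 at 0.842 to 0.850, while DKO 1 and DKO 2 correlated with each other at 0.813. Over these genes as a whole the DKO libraries were thus no closer to each other than to WT. A group average therefore need not describe both libraries for a given gene. LSK cells, the Lin-/Sca1+/Kit+ stem and progenitor fraction, were sequenced from the same mice. Over the 11039 genes tested in both fractions, MEP and LSK of DKO mouse 1 correlated at 0.970, just under the range between WT MEP libraries. MEP and LSK of a WT mouse correlated at 0.785 to 0.858, and those of DKO mouse 2 at 0.836. The sorted fractions of DKO mouse 1 therefore differed little in RNA, and whether they hold distinct populations was not tested. Values of DKO 1 are therefore given beside those of DKO 2. WT replicate 2 had lower megakaryocyte and immediate early RNAs than the other WT libraries, for example 56.5 FPKM of Pf4 against 199.1 and 242.9.

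A gene was called changed when limma's moderated test on log2(FPKM + 1) gave an unadjusted p below 0.05 and the fold change exceeded 1.5. Of the 11218 genes, 1651 were called higher in DKO MEP (14.7%) and 1155 lower (10.3%). At a Benjamini-Hochberg adjusted p below 0.05, 558 were higher and 391 lower. These 949 calls fell to 2 without WT replicate 1 and to 0 without WT replicate 2 or 3. The adjusted p-values given below thus rest on all 3 WT libraries. With 2 libraries against 3 an exact two-sided permutation test cannot go below p = 0.1, and p-values measure only the spread between these 5 mice. The filter took the mean of all 5 libraries, so a gene low in 1 group can pass through the other group alone. The p-value of such a gene only describes a gap that the filter helped to select. Where a DKO library is left out below, the remaining one is a single sample that is assumed to vary like WT, so such counts describe that library and do not test the genotype. Quantile normalization moved the median difference of all genes by -0.20 and turned the split into 1113 higher and 2025 lower. Because the spread of the DKO libraries was wide, each gene was also placed by its value in each DKO library. A library counted as higher or lower when it lay more than 1.5-fold from the WT mean on the log2(FPKM + 1) scale and outside the range of the 3 WT libraries.

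By this rule 1436 genes were higher in both DKO libraries (12.8%) and 804 lower in both (7.17%). Another 1151 genes were higher in DKO 1 only (10.3%), 649 lower in DKO 1 only (5.79%), 1331 higher in DKO 2 only (11.9%) and 1132 lower in DKO 2 only (10.1%). In 326 genes (2.91%) the libraries lay on opposite sides of WT, 157 with DKO 1 higher and 169 with DKO 2 higher. Changes of 1 library thus numbered 4263 genes, against 2240 in both. Of the 2240, 2136 were also called by the test, and of the 4263 only 670 were. None of the 326 opposite genes was called by limma, and the 2806 calls thus come mostly from the genes seen in both libraries. Under quantile normalization 962 genes were higher in both DKO libraries and 1468 lower in both, so the balance turned. The pair of Bcor-/- MEP libraries, 1 of which carries the numbers of a pair of mice in its label, set against the same WT libraries and placed by the same rule over the same genes, gave 188 genes higher in both and 187 lower in both.

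**Figure D1:**
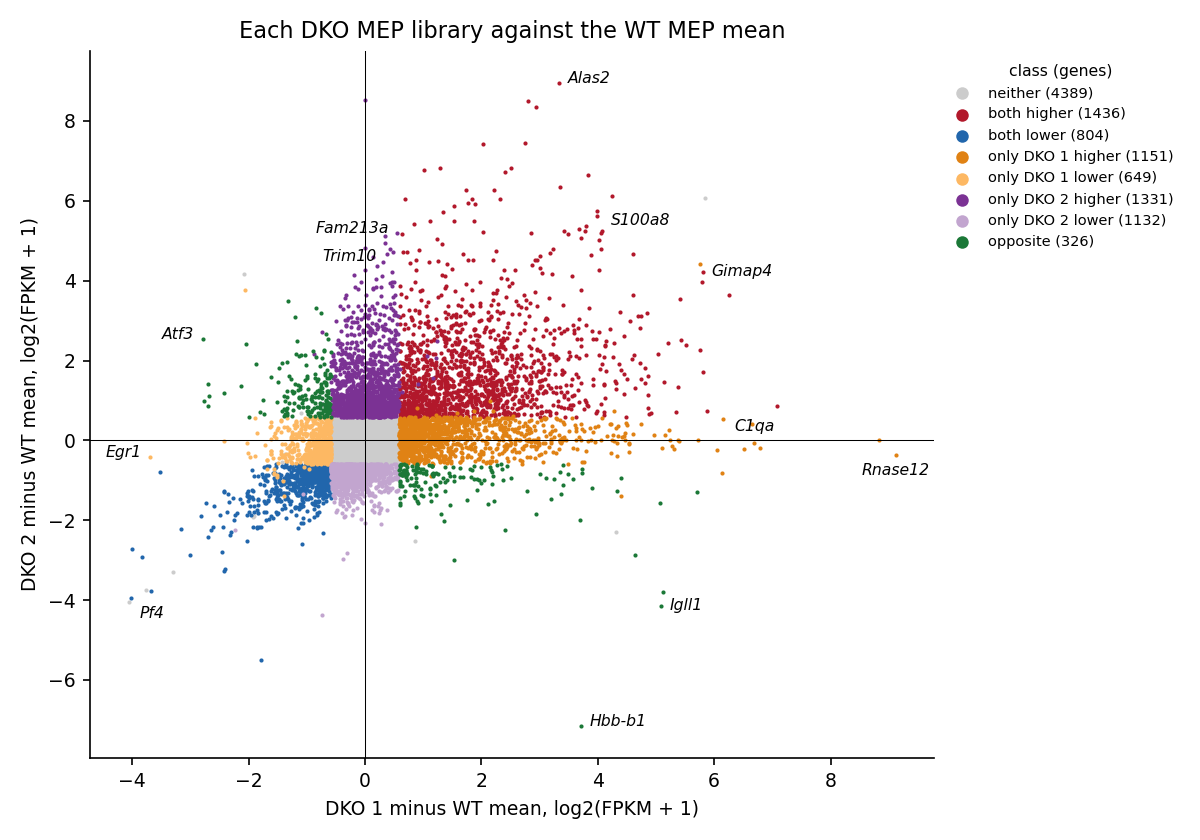
Each point is 1 of the 11218 tested genes, with the difference of DKO 1 from the WT mean on the x axis and that of DKO 2 on the y axis, both on log2(FPKM + 1), and the color gives its class. The upper right holds the 1436 genes higher in both libraries, and the bands along the axes hold the 4263 genes that moved in 1 library only.

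The genes that stood farthest from WT in both DKO libraries were led by S100a6, Apol11b and Gimap4 on the higher side and by Pf4, a platelet protein, on the lower side. S100a6, a calcium-binding protein, had 193.0 and 199.3 FPKM in DKO 1 and DKO 2 against 6.05, 7.85 and 7.02 in WT (log2 difference 4.63 ± 0.16, adjusted p = 0.00432). Its groups did not overlap, which the rule of its class requires, and the DKO libraries had nearly the same level. Gimap4, a GTPase of lymphocytes, had 298.3 and 97.8 FPKM in DKO against 2.94, 6.87 and 3.94 in WT (log2 difference 5.01 ± 0.54, adjusted p = 0.0220). Podxl, the sialomucin podocalyxin, had 24.6 and 41.6 FPKM in DKO against 0.479, 0.305 and 0.907 in WT (log2 difference 4.42 ± 0.32, adjusted p = 0.0194). Apol11b, of the apolipoprotein L family, had 20.6 and 77.6 FPKM in DKO against 0.0778 to 0.228 in WT (log2 difference 5.18 ± 0.56, adjusted p = 0.0220). Podxl and Apol11b, with WT means of 0.564 and 0.138 FPKM, passed the filter through the DKO libraries alone. Their p-values only describe the gap. The other 6 of the 10 leading genes, S100a8, S100a9, Wfdc21, Retnlg, Lcn2 and Ngp, are transcripts of maturing neutrophils, with log2 differences between 4.15 and 4.87.

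On the lower side Pf4, the platelet factor 4 of the alpha granules, had 7.68 and 8.09 FPKM in DKO against 199.1, 56.5 and 242.9 in WT (log2 difference -3.99 ± 0.64, adjusted p = 0.0325). Spon2, a secreted matrix protein, had 0.865 and 0.724 FPKM in DKO against 22.9, 29.9 and 17.2 in WT (log2 difference -3.73 ± 0.27, adjusted p = 0.0194). Khdrbs3, an RNA-binding protein, had 0.104 and 0.217 FPKM in DKO against 6.95, 9.98 and 6.90 in WT (log2 difference -2.93 ± 0.27, adjusted p = 0.0194). The 3 genes were low to a like degree in both DKO libraries. Spon2 and Khdrbs3, with DKO means of 0.794 and 0.160 FPKM, passed the filter through the WT libraries alone. Their p-values only describe the gap. Dntt, the terminal transferase of early lymphoid cells, had 3.15 and 9.09 FPKM in DKO against 50.3, 74.4 and 73.8 in WT (log2 difference -3.35 ± 0.42, adjusted p = 0.0259). The remaining 6 of the 10, Zg16, Ephx2, Sh2d4a, Treml1, Tceal3 and Clstn3, had log2 differences between -3.38 and -2.34. That none overlapped with WT follows from the rule of their class. All 20 leading genes kept their direction and their call under the alternatives that tested them. These leave out Khdrbs3 and Treml1 at a minimum of 5 FPKM and Tceal3 where genes with a listed 0 are dropped. The 20 were chosen in these same libraries for being called with the largest gaps, so the refits are not a separate check.

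The promoter windows of the first 2 leading genes in each direction for which RefSeq gives one are printed to show the sequence at the start of the genes that separated DKO from WT in both libraries. Each runs from 250 bases before to 50 bases after the start in GRCm38.p6, a build other than the mm9 of the deposited values. S100a6 is at chr3:90612644-90612943 on the + strand, Apol11b at chr15:77643237-77643536 on the - strand, Pf4 at chr5:90772185-90772484 on the + strand and Dntt at chr19:41029025-41029324 on the + strand. Capitals mark the letters AGATAA, bound by GATA factors, and TTGCNNAA, bound by C/EBP factors, searched on both strands.
S100a6: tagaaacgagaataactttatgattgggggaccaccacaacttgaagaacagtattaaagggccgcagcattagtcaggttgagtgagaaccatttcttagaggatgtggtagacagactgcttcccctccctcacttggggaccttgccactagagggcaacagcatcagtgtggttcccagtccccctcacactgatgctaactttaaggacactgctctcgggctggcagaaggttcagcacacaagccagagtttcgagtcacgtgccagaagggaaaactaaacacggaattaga
Apol11b: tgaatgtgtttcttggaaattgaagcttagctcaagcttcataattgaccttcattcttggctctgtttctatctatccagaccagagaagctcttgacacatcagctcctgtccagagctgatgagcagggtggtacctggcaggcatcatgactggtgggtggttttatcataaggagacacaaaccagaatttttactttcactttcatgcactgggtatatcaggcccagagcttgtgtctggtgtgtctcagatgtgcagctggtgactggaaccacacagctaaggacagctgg
Pf4: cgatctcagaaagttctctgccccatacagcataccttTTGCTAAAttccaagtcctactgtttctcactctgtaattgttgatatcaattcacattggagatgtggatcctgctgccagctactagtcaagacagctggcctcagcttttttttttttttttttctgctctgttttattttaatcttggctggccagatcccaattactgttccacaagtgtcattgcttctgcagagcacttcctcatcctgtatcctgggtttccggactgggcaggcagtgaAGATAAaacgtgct
Dntt: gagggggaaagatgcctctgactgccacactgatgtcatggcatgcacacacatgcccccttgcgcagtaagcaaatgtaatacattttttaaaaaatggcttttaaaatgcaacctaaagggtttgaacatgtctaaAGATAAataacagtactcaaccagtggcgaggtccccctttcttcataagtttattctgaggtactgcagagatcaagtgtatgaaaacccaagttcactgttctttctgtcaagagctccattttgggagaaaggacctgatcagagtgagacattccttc
Pf4 held both motifs once, Dntt held AGATAA once, and S100a6 and Apol11b held neither. Among all 27025 genes with a window, 12.7% held AGATAA and 12.2% held TTGCNNAA. Among the 8595 tested genes with a window the shares were 8.04% and 10.02%. Of the genes higher in both DKO libraries, 10.3% held AGATAA and 13.9% held TTGCNNAA, against 9.09% and 10.9% of the genes lower in both. These shares are a description, and letters in a window are not a bound site.

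RNAs of maturing neutrophils were higher in both DKO libraries. Of the 18 tested genes of the late neutrophil list, 17 were called higher, beside 14.7% of all tested genes. All 18 lay above WT in both DKO libraries, beside 12.8% of all tested genes. The median log2 difference of the list was 4.08 against 0.04 over all tested genes. S100a8, an alarmin stored in neutrophils, had 2988 and 6713 FPKM in DKO 1 and DKO 2 against 243.5, 120.3 and 186.4 in WT (log2 difference 4.66 ± 0.45, adjusted p = 0.0200). Lcn2, which binds bacterial siderophores, had 185.8 and 638.1 FPKM in DKO against 14.0, 7.57 and 11.9 in WT (log2 difference 4.87 ± 0.56, adjusted p = 0.0228). Chil3, a chitinase-like protein, had 102.3 and 729.2 FPKM in DKO against 4.82 to 7.995 in WT (log2 difference 5.25 ± 0.81, adjusted p = 0.0316). In these genes DKO 2 was above DKO 1 and the groups did not overlap. Csf3r, the G-CSF receptor, was the exception to the call, with 6.46 and 8.04 FPKM in DKO against 0.460 to 4.90 in WT. The summed level of the list was 7404 FPKM in DKO 1 and 17082 in DKO 2, against 331.6 to 615.3 in WT.

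Genes of the earlier granulocyte stage gave a lower median. Of the 12 primary granule genes, 5 were called higher and none lower, beside 14.7% and 10.3% of all tested genes, with a median log2 difference of 1.76, and 8 were called higher without WT replicate 1. Mgst1, a glutathione transferase, had 56.4 and 28.4 FPKM in DKO against 0.743 to 1.91 in WT, and Fcnb, a ficolin, had 14.0 and 38.6 against 0.643 to 3.02. Mpo, the myeloperoxidase of the primary granules, had 55.1 and 120.7 FPKM in DKO against 10.8 to 96.1 in WT and was not called. Elane, neutrophil elastase, had 36.7 and 88.5 against 7.08 to 49.4. For Mpo and Elane, DKO 1 was thus within the range of WT.

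T and NK cell genes were also higher in both DKO libraries. Of 13 tested members 12 were called higher, beside 14.7% of all tested genes, and 12 were above WT in both, beside 12.8%. The median log2 difference of the list was 2.501. Klrd1, the NK receptor CD94, had 26.2 and 87.6 FPKM in DKO against 2.34 to 4.54 in WT (log2 difference 3.42 ± 0.54, adjusted p = 0.0324). Il2rb, a chain of the IL-2 receptor, had 28.8 and 83.7 against 3.71 to 7.94 (log2 difference 3.03 ± 0.52, adjusted p = 0.0355). Gzma, a granzyme, had 12.6 and 84.5 against 1.67 to 4.87. Nkg7, a granule protein, was the member not called, with 48.9 and 97.4 FPKM in DKO and 26.8 to 64.2 in WT. The summed level of the list was low beside that of the neutrophil list, at 255.6 and 560.3 FPKM in DKO against 71.5 to 86.8 in WT.

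Of the 10 tested mast cell, basophil and eosinophil genes, 4 were called higher and 1 lower, beside 14.7% and 10.3% of all tested genes, so the lower count is at the background. Prg2, the eosinophil major basic protein, had 61.2 and 17.4 FPKM in DKO against 1.505 to 4.205 in WT (log2 difference 3.25 ± 0.59, adjusted p = 0.0389). Il1rl1, the IL-33 receptor, had 2.93 and 6.56 against 20.6 to 25.4 (log2 difference -2.12 ± 0.31, adjusted p = 0.0302). Late neutrophil and T and NK cell markers were thus higher in DKO than in WT in a gate that excludes lineage-positive cells. In these bulk libraries more cells of a type and more RNA per cell cannot be told apart, and the part of such cells in the other differences was not tested.

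**Figure D2:**
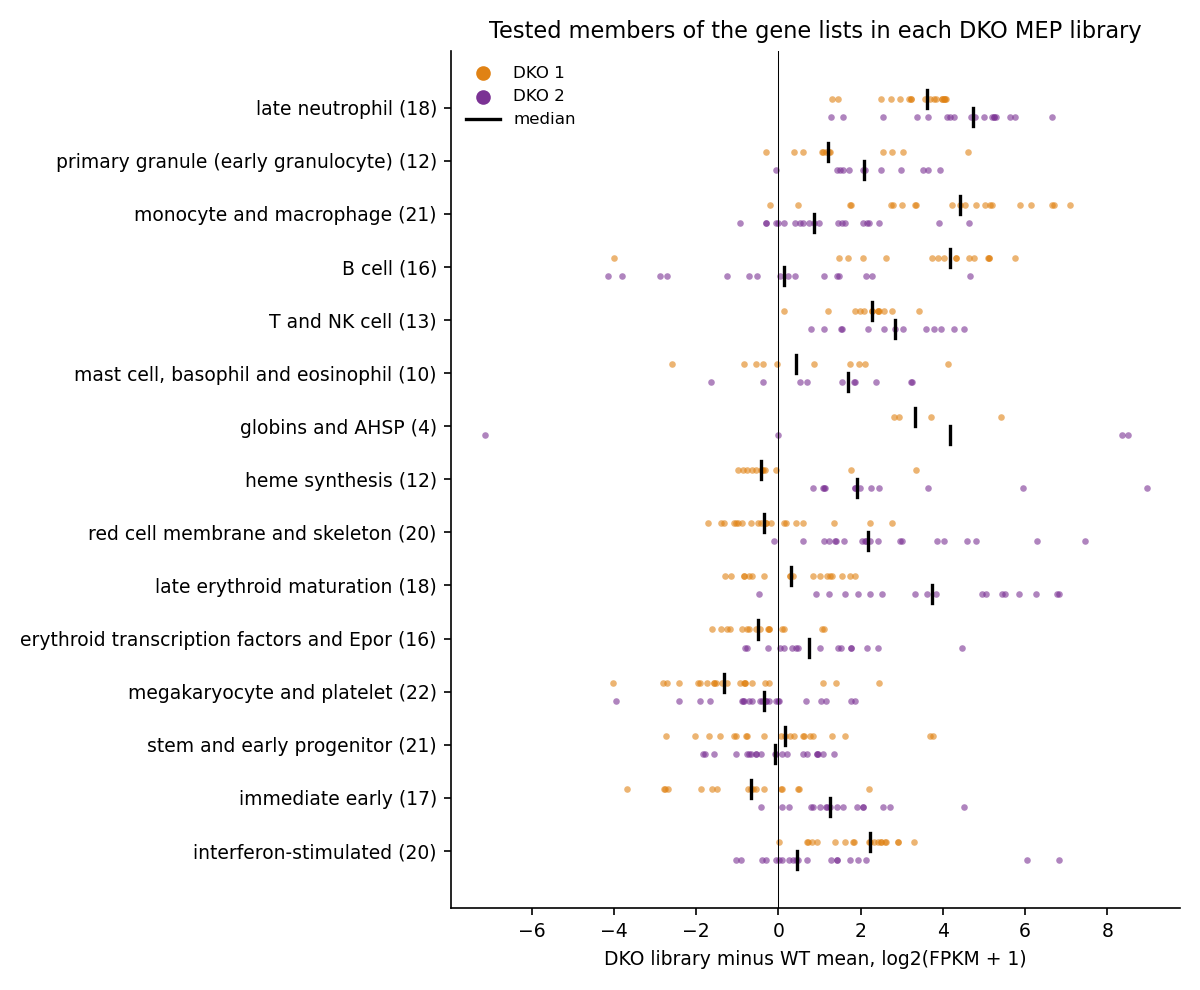
Each point is a tested member of a gene list, placed by its difference from the WT mean on log2(FPKM + 1) in DKO 1 (orange) or DKO 2 (purple), with the number of tested members in brackets and the median as a bar. Late neutrophil and T and NK cell genes lay to the right in both libraries, whereas the medians of heme synthesis and red cell membrane genes lay to the right of 0 in DKO 2 and to the left in DKO 1.

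Erythroid genes separated the DKO libraries from each other. Hba-a1, an alpha globin, had 109.7, 279.8 and 110.3 FPKM in WT, 1055 in DKO 1 and 55204 in DKO 2. Hbb-b2, a beta globin, had 69.1, 176.7 and 62.4 FPKM in WT, 705.1 in DKO 1 and 30050.4 in DKO 2. Both were called higher (log2 differences 5.66 ± 1.64 and 5.64 ± 1.57), with adjusted p = 0.0904 and 0.0834. They were the 2 called of 4 tested globin genes, beside 14.7% of all tested genes, and the count was 1 without WT replicate 3 and 4 without DKO 2. Globins made up 13.6% of the summed FPKM of DKO 2, 0.836% of that of DKO 1 and 0.0624% to 0.151% of that of WT. Hbb-b1 was listed at 0 in DKO 2 and had 1854 FPKM in DKO 1 and 97.4 to 263.9 in WT. Since the beta globin copies are near-identical and a 0 can be a failed estimate, the split among them is uncertain. Embryonic Hbb-y and Hbb-bh1 had 4.60 and 4.27 FPKM in DKO 2, were listed at 0 in DKO 1 and stayed at or below 0.320 in WT.

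Heme synthesis genes were above WT in DKO 2, and 2 of them, Alas2 and Slc25a37, were above it in DKO 1 as well. All 12 members of the list lay above the WT range in DKO 2, with a median difference of 1.92 from WT on log2(FPKM + 1), against -0.41 in DKO 1. Alas2, the first enzyme of the erythroid pathway, had 4.45, 15.2 and 6.90 FPKM in WT, 88.3 in DKO 1 and 4392 in DKO 2 (log2 difference 6.14 ± 1.62, adjusted p = 0.0751). Slc25a37, the mitochondrial iron importer mitoferrin, had 20.1 to 24.3 FPKM in WT, 75.3 in DKO 1 and 1381 in DKO 2 and was the other called member. The 2 calls of 12 genes, near the 14.7% of all tested genes, became 12 without DKO 1 and 1 without WT replicate 2 or 3, and 3 genes were called lower without DKO 2. Urod, a decarboxylase of the pathway, had 139.0 FPKM in DKO 1 and 860.9 in DKO 2 against 204.3 to 297.9 in WT. For Urod, DKO 1 was the lowest and DKO 2 the highest of the 5 libraries.

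The red cell membrane and skeleton genes followed the same order. Their median difference from WT was -0.36 in DKO 1 and 2.18 in DKO 2. Of 20 genes, 8 were higher in DKO 2 only, 7 lay on opposite sides and 4 were higher in both. Over all tested genes the shares of these classes were 11.9%, 2.91% and 12.8%. Slc4a1, the anion exchanger band 3, had 11.7, 32.7 and 13.4 FPKM in WT, 123.0 in DKO 1 and 3195 in DKO 2 (log2 difference 5.10 ± 1.37, adjusted p = 0.0777). Tmod1, tropomodulin, had 1.14 to 1.75 FPKM in WT, 10.7 in DKO 1 and 194.5 in DKO 2. Aqp1, the water channel, had 248.9 in DKO 1, below the WT range of 657.2 to 1054, and 758.2 in DKO 2, within it. Band 3 and tropomodulin were thus above WT in both libraries, whereas the water channel was above it in neither. The list had 3 genes called higher, near the 14.7% of all tested genes, which became 19 without DKO 1, while 7 were called lower without DKO 2.

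Genes of late erythroid maturation also differed between the DKO libraries, with median differences from WT of 0.32 in DKO 1 and 3.72 in DKO 2. Of 18 tested, 6 were called higher and 1 lower, beside 14.7% and 10.3% of all tested genes. In DKO 1 only 1 was lower, and 5 lay on opposite sides of WT, beside 5.79% and 2.91% of all tested genes. Bpgm, which makes 2,3-bisphosphoglycerate in red cells, had 11.9 to 15.7 FPKM in WT, 35.9 in DKO 1 and 1710 in DKO 2 (log2 difference 4.06 ± 1.54, adjusted p = 0.150). Xpo7, a nuclear exporter of maturing erythroblasts, had 2.28 to 3.58 FPKM in WT, 12.2 in DKO 1 and 302.3 in DKO 2 (log2 difference 3.999 ± 1.27, adjusted p = 0.108). Car1, carbonic anhydrase 1, had 1475 and 2362 FPKM in DKO against 2686 to 3713 in WT and was called lower (log2 difference -0.81 ± 0.29, adjusted p = 0.137). The 6 higher calls became 2 without any 1 of the WT libraries, 17 without DKO 1 and 7 without DKO 2, and the lower call of Car1 was lost without WT replicate 1, WT replicate 2 or DKO 1. Among the genes highest in DKO 2 alone were Fam213a, a peroxiredoxin-like protein, and Trim10, of the TRIM family. Trim10 had 18.1 to 37.3 FPKM in WT, 29.9 in DKO 1 and 746.5 in DKO 2, and Fam213a had 28.9 to 37.0 in WT, 49.1 in DKO 1 and 1243 in DKO 2.

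Of the transcription factors of the lineage, Gata1, Klf1 and Gata2 were below WT in DKO 1. Gata1, the erythroid and megakaryocytic GATA factor, had 178.2, 224.7 and 170.2 FPKM in WT, 71.4 in DKO 1 and 238.9 in DKO 2 (log2 difference -0.53 ± 0.51, adjusted p = 0.505). Klf1, the activator of adult beta globin, had 144.3, 191.7 and 153.5 FPKM in WT, 70.9 in DKO 1 and 219.0 in DKO 2 (log2 difference -0.37 ± 0.48, adjusted p = 0.620). Gata2, the GATA factor of earlier progenitors, had 34.2, 18.6 and 49.2 FPKM in WT, 6.98 in DKO 1 and 30.2 in DKO 2 (log2 difference -1.05 ± 0.68, adjusted p = 0.337). None of the 3 was called, and all 3 were below the WT range in DKO 1 alone. Of the 16 members of this list, 2 were called higher, E2f2 and Lyl1, and 1 lower, Ldb1, an adaptor of the Gata1 and Tal1 complex. Both counts are below the 14.7% and 10.3% of all tested genes. Lyl1, a relative of Tal1, had 69.9 and 97.5 FPKM in DKO against 29.1 to 37.3 in WT (log2 difference 1.29 ± 0.21, adjusted p = 0.0325). Of the list, 8 were called higher without DKO 1, 7 were called lower without DKO 2, and 1 was called higher without any 1 of the WT libraries.

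Tfr2, the second transferrin receptor, had 16.5 and 21.9 FPKM in DKO 1 and DKO 2 against 80.4, 93.7 and 66.4 in WT (log2 difference -2.01 ± 0.22, adjusted p = 0.0220). Steap3, the endosomal ferrireductase, had 74.8 to 104.2 in WT and 41.7 and 34.3 in DKO (log2 difference -1.19 ± 0.20, adjusted p = 0.0343), and Aco1, an iron sensor, was also called lower. Fam132b, the older symbol of the erythroblast hormone erythroferrone (Erfe), had 10.5 and 57.9 FPKM in DKO against 0.546 to 0.650 in WT (log2 difference 4.03 ± 0.68, adjusted p = 0.0354). Fam132b passed the minimum of 1 FPKM through the DKO libraries alone, so its p-value only describes the gap. These 4 of 10 iron genes, 3 called lower and 1 higher, moved in both libraries, beside 10.3% and 14.7% of all tested genes called. The 1 higher call of 10 is below the 14.7%. The median difference of the list from WT was -0.40 in DKO 1 and -0.10 in DKO 2. Tfrc, the main transferrin receptor, had 204.3 FPKM in DKO 1, as in WT at 204.1 to 210.5, and 1422 in DKO 2.

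**Figure D3:**
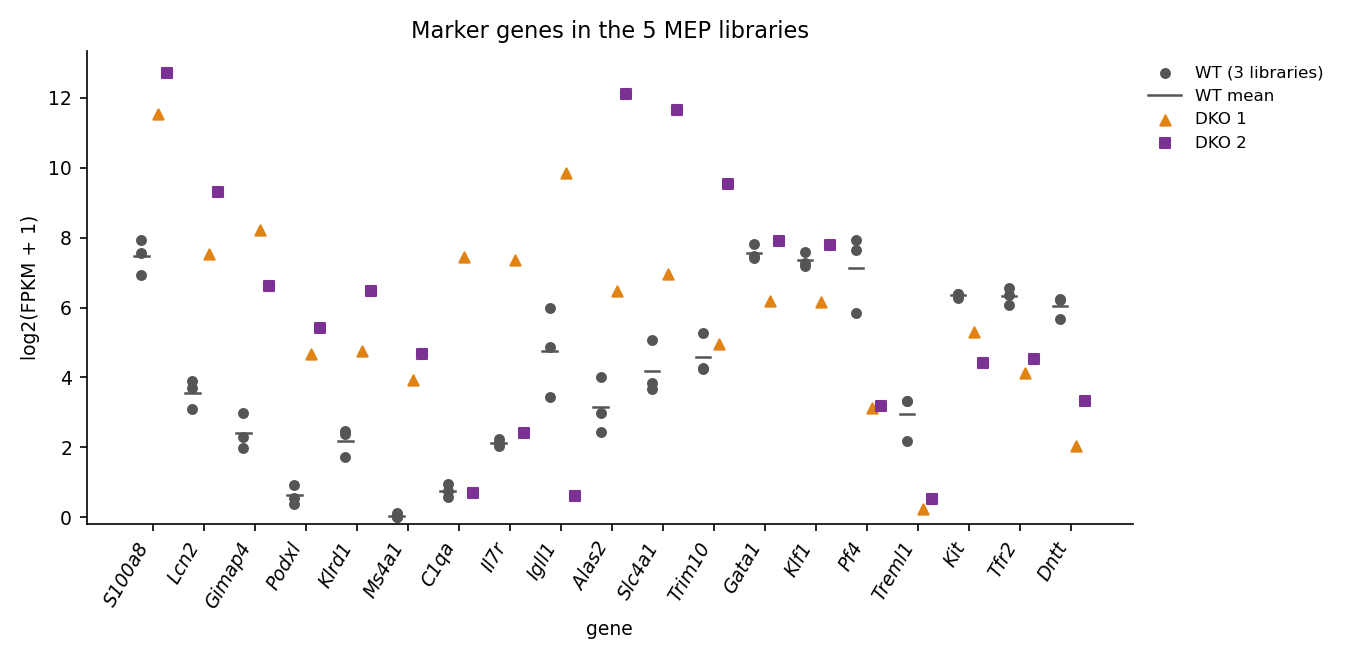
Marker genes in the 5 MEP libraries on log2(FPKM + 1), with WT libraries as gray circles and their mean as a bar, DKO 1 as an orange triangle and DKO 2 as a purple square. S100a8 was above WT in both DKO libraries and Pf4 below it in both, C1qa and Il7r stood out in DKO 1 alone, and Trim10 stood out in DKO 2 alone.

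Of 22 tested megakaryocyte and platelet genes 5 were called lower and 2 higher, with a median log2 difference of -0.80, and the medians of the single libraries were -1.31 in DKO 1 and -0.36 in DKO 2. Treml1, a platelet receptor, had 0.186 and 0.448 FPKM in DKO against 9.12, 3.50 and 9.03 in WT (log2 difference -2.56 ± 0.44, adjusted p = 0.0365). Treml1 passed the minimum of 1 FPKM through the WT libraries alone, so its p-value only describes the gap. Sdpr, the caveolar protein now named Cavin2, had 0.248 and 1.36 FPKM in DKO against 3.08 to 15.8 in WT. The called members that rose were Fli1, an ETS factor, and Nbeal2, needed for alpha granules. Itga2b, the platelet integrin CD41, had 46.6, 12.9 and 61.5 FPKM in WT, 5.47 in DKO 1 and 33.4 in DKO 2, so it was below WT in DKO 1 only. Of the 22, 8 were lower in DKO 1 only and none in DKO 2 only, beside 5.79% and 10.1% of all tested genes. Without WT replicate 2, in which these RNAs were lowest, 8 members were called lower, without DKO 1 there were 3, and under quantile normalization there were 9. Over all tested genes 10.3% were called lower and 14.7% higher, and the 2 higher calls of the list are below that share.

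The genes highest in DKO 1 alone included complement genes of macrophages. C1qa, a chain of complement C1q, had 0.680, 0.944 and 0.485 FPKM in WT, 173.7 in DKO 1 and 0.616 in DKO 2, and C1qc had 155.1 in DKO 1 and 1.06 in DKO 2. Rnase12, of the ribonuclease A family, had 719.3 FPKM in DKO 1, was listed at 0 in DKO 2 and reached 0.555 in WT. Gm525 had 125.3 FPKM in DKO 1, was listed at 0 in DKO 2 and reached 0.506 in WT. These genes separated 1 mouse from the other 4. Of the 21 tested monocyte and macrophage genes, 9 were called higher, 11 were above WT in both DKO libraries and 7 in DKO 1 only. Over all tested genes 12.8% were higher in both and 10.3% in DKO 1 only. The called share stands beside 14.7% of all tested genes, with 18 called without DKO 2 and 7 without WT replicate 2 or 3. Csf1r, the receptor for M-CSF, had 69.9 and 9.49 FPKM in DKO against 0.425 to 1.502 in WT (log2 difference 3.82 ± 0.82, adjusted p = 0.0513). Lyz2, a lysozyme of myeloid cells, had 270.0 and 830.3 against 21.8 to 49.4 (log2 difference 3.81 ± 0.56, adjusted p = 0.0302). The median difference of the list from WT was 4.41 in DKO 1 and 0.86 in DKO 2.

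B cell genes were among those on opposite sides of WT. Igll1 and Vpreb1 encode the surrogate light chain of the pre-B cell receptor. Igll1 had 28.1, 62.8 and 9.92 FPKM in WT, 928.0 in DKO 1 and 0.536 in DKO 2, and Vpreb1 had 26.0, 50.9 and 7.43 in WT, 793.5 in DKO 1 and 0.627 in DKO 2. Both were thus above WT in 1 DKO library and below it in the other. Cd79a, a signaling chain of the B cell receptor, was above WT in both, with 500.4 and 43.7 FPKM against 3.43 to 21.3 (log2 difference 4.01 ± 1.17, adjusted p = 0.0917). Ms4a1, the mature B cell antigen CD20, was listed at 0 in WT replicates 1 and 2 and had 0.0778 FPKM in WT replicate 3. In DKO it reached 14.1 and 24.7 FPKM (log2 difference 4.26 ± 0.32, adjusted p = 0.0194). Ms4a1 passed the minimum of 1 FPKM through the DKO libraries alone, so its p-value only describes the gap. Of the 16 genes of the list 6 were called higher and 1, Dntt, lower, beside 14.7% and 10.3% of all tested genes, so the lower count is below the background. The higher calls were 15 without DKO 2, 3 without DKO 1 and 3 without WT replicate 3, and the lower calls were 4 without DKO 1.

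Of 21 tested stem and early progenitor genes, 1 was called higher and 2 lower, both below the 14.7% and 10.3% of all tested genes, with a median log2 difference of 0.08. Ly6a, the Sca1 antigen that the MEP gate excludes, was the member called higher and had 17.8 and 1.87 FPKM in DKO against 0 to 0.790 in WT (log2 difference 2.33 ± 0.84, adjusted p = 0.137). Ly6a passed the minimum of 1 FPKM through the DKO libraries alone, so its p-value only describes the gap. Angpt1, angiopoietin 1, had 2.33 and 6.41 against 8.43 to 43.8, and Adgrg1, an adhesion receptor, had 62.0 and 77.7 against 98.2 to 176.0. Both were called lower and were below WT in both libraries. No member was called higher without any 1 of the WT libraries, none lower without WT replicate 1, 1 lower without WT replicate 3 and 4 lower without WT replicate 2, while 7 were called higher without DKO 2. Erg, an ETS factor, had 123.7 FPKM in DKO 1 and 5.30 in DKO 2 against 6.785 to 11.4 in WT. Myb, a factor of proliferating progenitors, had 204.2 in DKO 1 and 52.1 in DKO 2 against 157.4 to 201.6. Erg thus stood apart in DKO 1 and Myb in DKO 2. Outside this list Ptprc, the pan-leukocyte antigen CD45, was called higher, with 102.6 and 131.1 FPKM against 20.6 to 28.1 (log2 difference 2.19 ± 0.20, adjusted p = 0.0194).

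Immediate early genes, which respond within minutes to stimuli, also separated the DKO libraries. Their median difference from WT was -0.67 in DKO 1 and 1.26 in DKO 2. Of 17 genes 7 lay on opposite sides, beside 2.91% of all tested genes. Egr1, the leading gene among those lower in DKO 1 only, had 129.1, 39.8 and 111.7 FPKM in WT, 5.54 in DKO 1 and 62.1 in DKO 2. Atf3, a stress-induced factor, had 25.9, 7.22 and 12.4 FPKM in WT, 1.09 in DKO 1 and 81.9 in DKO 2. Ppp1r15a, which reverses the phosphorylation of eIF2 alpha, had 76.0 to 106.4 in WT, 33.9 in DKO 1 and 976.2 in DKO 2. Klf2 was the 1 called member, with 26.9 and 138.7 FPKM in DKO against 3.83 to 7.05 in WT (log2 difference 3.36 ± 0.69, adjusted p = 0.0469). The 1 call of 17 is below the 14.7% of all tested genes. Without DKO 1, 9 members were called higher, and without DKO 2, 5 were called lower.

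Of 20 tested interferon-stimulated genes, 9 were called higher and 9 were above WT in both, while 8 were higher in DKO 1 only. Over all tested genes 12.8% were above WT in both and 10.3% in DKO 1 only. The called share stands beside 14.7% of all tested genes, and 18 were called higher without DKO 2. Rsad2, viperin, had 2.51, 2.49 and 1.54 FPKM in WT, 16.9 in DKO 1 and 354.0 in DKO 2, and Isg15, a ubiquitin-like modifier, had 3.54 to 7.36 in WT, 31.7 in DKO 1 and 430.3 in DKO 2. Their adjusted p-values were 0.0730 and 0.0705. Ifit1, which binds viral RNA, had 8.69 and 5.91 FPKM in DKO against 0.418 to 0.831 in WT (log2 difference 2.37 ± 0.30, adjusted p = 0.0262). Ifit1 passed the minimum of 1 FPKM through the DKO libraries alone, so its p-value only describes the gap. The median difference of the list was 2.22 in DKO 1 and 0.45 in DKO 2.

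Of 16 tested survival genes of the Bcl2 family, 7 were called higher and 2 lower, beside 14.7% and 10.3% of all tested genes. The lower count is near that background. Leaving out 1 library gave 4 to 7 higher, with the fewest without WT replicate 1, and 1 to 5 lower, with the most without DKO 1. The antiapoptotic Mcl1 had 122.0 and 174.2 FPKM in DKO against 62.3 to 76.8 in WT (log2 difference 1.06 ± 0.21, adjusted p = 0.0435), and Bcl2l1, which encodes Bcl-xL, had 22.9 and 295.6 against 4.69 to 6.17 (log2 difference 3.68 ± 1.02, adjusted p = 0.0826). The proapoptotic Bmf had 16.4 and 2.22 FPKM in DKO against 0.462 to 0.492 in WT. The members called lower were the proapoptotic Bid, with 29.0 and 24.9 FPKM against 45.2 to 49.4 (log2 difference -0.78 ± 0.15, adjusted p = 0.0407), and Bad. Both pro- and antiapoptotic members were thus among those that rose. Trp53 had 76.5 and 90.3 FPKM in DKO against 113.8 to 139.2 in WT and was called lower (log2 difference -0.64 ± 0.17, adjusted p = 0.0741), a call lost without DKO 1. Of the 20 tested genes of the p53 list 5 were called higher, led by Trp53inp1, a p53 target of stress responses, with 31.3 and 48.5 FPKM against 2.93 to 4.02 (log2 difference 3.14 ± 0.25, adjusted p = 0.0194). The 5, beside 14.7% of all tested genes, became 11 without DKO 1 and 3 without WT replicate 2 or under quantile normalization.

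Of 30 replication and mitosis genes none was called higher and 1, Gins2 of the replicative helicase, lower. Both counts are below the background of 14.7% higher and 10.3% lower, and the call of Gins2 was lost without WT replicate 2. In DKO 2 only 10 were higher and in DKO 1 only 6 were lower, beside 11.9% and 5.79% of all tested genes. The median difference of the list from WT was -0.34 in DKO 1 and 0.26 in DKO 2. Mki67, the proliferation antigen, had 172.0 FPKM in DKO 1, within the WT range of 164.6 to 182.2, and 750.2 in DKO 2. Of the 10 tested CDK inhibitors, D cyclins and their kinases, 4 were called higher and 1 lower, beside 14.7% and 10.3% of all tested genes, with 3 to 5 higher and 1 to 2 lower when 1 library was left out. The members called higher were the inhibitors Cdkn1b, Cdkn2c and Cdkn2d, and the cyclin Ccnd3. Cdkn1b, p27, had 29.5 and 113.3 FPKM against 14.5 to 16.2 in WT (log2 difference 1.87 ± 0.55, adjusted p = 0.0908). Cdk4, a kinase of G1, had 314.1 and 196.6 against 448.4 to 600.1 (log2 difference -1.02 ± 0.26, adjusted p = 0.0709). Cdkn2a was listed at 0 in all 3 WT libraries and had 8.23 FPKM in DKO 1 and 0.276 in DKO 2, and was not called.

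In housekeeping groups the median log2 difference was -0.49 over 81 cytosolic ribosomal protein genes, with 16 called lower and 1 higher, -0.37 over 76 genes of oxidative phosphorylation, with 9 lower and none higher, and -0.16 over 47 proteasome genes, with 6 lower and none higher. Under quantile normalization the medians were -0.62, -0.44 and -0.22, beside -0.16 for all genes. The share of ribosomal genes called lower, 16 of 81, stood beside 10.3% of all tested genes, and those of the other two groups, 9 of 76 and 6 of 47, were near that background. Lower calls of ribosomal genes were 5 without WT replicate 1, 10 without WT replicate 2 and 25 without DKO 1. Those of oxidative phosphorylation were 2 without WT replicate 2, 6 without WT replicate 1 and 15 without DKO 2, and those of the proteasome were 10 without DKO 2. Under quantile normalization 32 ribosomal and 18 oxidative phosphorylation genes were called lower. Gapdh was listed at 0.856 to 1.41 FPKM in the 5 libraries. Ribosomal protein genes and Gapdh have near-identical pseudogene copies, and how the reads were divided among copies was not tested, so these levels are uncertain. In glycolysis Ldha, lactate dehydrogenase A, had 361.9 and 337.4 FPKM in DKO against 607.4 to 664.1 in WT (log2 difference -0.85 ± 0.15, adjusted p = 0.0364), and Tpi1, triosephosphate isomerase, had 140.5 and 151.4 against 255.9 to 302.0 (log2 difference -0.93 ± 0.15, adjusted p = 0.0324). Pkm, the pyruvate kinase of progenitors, rose to 147.7 and 97.3 against 20.8 to 53.7, while Pklr, the red cell and liver form, was called lower with 59.7 and 87.6 against 124.7 to 239.5. Of the 16 tested glycolysis genes 5 were called lower and 2 higher, beside 10.3% and 14.7% of all tested genes. The higher calls were 1 without WT replicate 2, WT replicate 3 or DKO 2 and under quantile normalization.

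Of the 11 PRC1.1 genes 1, Ring1, the paralog of the E3 ligase Rnf2, was called lower, with 10.1 and 12.1 FPKM against 15.4 to 23.1 in WT (log2 difference -0.78 ± 0.23, adjusted p = 0.0917), a call lost without WT replicate 1, WT replicate 2 or DKO 1. Of 12 tested genes of DNA methylation, 1 was called higher and none lower, and that call was lost without any 1 of the WT libraries, without DKO 2 and under quantile normalization. Both counts are below the background of 14.7% and 10.3%. Under quantile normalization 5 genes of this list were called lower, where 2025 of all 11218 genes were. In DKO 2 only 3 were lower, beside 10.1% of all tested genes. Dnmt1, the maintenance enzyme, had 85.3 and 107.5 FPKM in DKO against 104.9 to 116.5 in WT. None of the 11 PRC1.1 genes was called higher. Of these, 2 were higher in DKO 1 only and 3 in DKO 2 only, beside 10.3% and 11.9% of all tested genes.

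The DKO changes were also looked up in the LSK libraries of the same mice. Cd34, an LSK gene, had 548.4 to 649.7 FPKM in WT LSK, 5.87 in LSK of DKO mouse 1 and 37.3 in LSK of DKO mouse 2. Gata1 had 44.1 and 43.5 FPKM in DKO LSK against 7.83 to 12.9 in WT LSK. The DKO LSK libraries thus lacked the level of Cd34 that marks WT LSK.

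**Figure D4:**
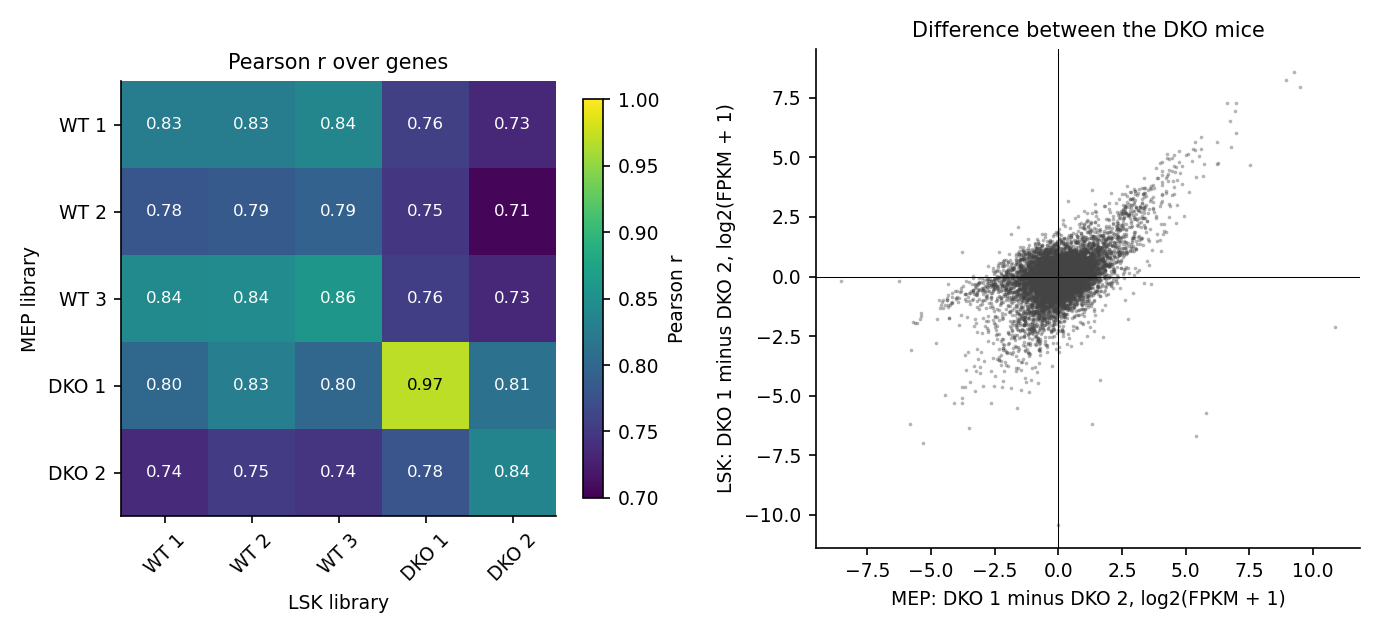
The left panel gives the Pearson r of log2(FPKM + 1) over 11039 genes between each MEP library (rows) and each LSK library (columns). The right panel plots for each gene the difference DKO 1 minus DKO 2 in MEP (x axis) and in LSK (y axis), both on log2(FPKM + 1), and the MEP and LSK libraries of DKO mouse 1 gave the highest value of the left panel, 0.970.

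Changes of 1 MEP library were looked for in LSK of both DKO mice, with no test. Because MEP and LSK of DKO mouse 1 were nearly alike, its LSK library is not a separate check of its MEP library. Of the 1143 genes higher in DKO 1 only that were tested in LSK, 42.8% were above WT by the same rule in LSK of DKO mouse 1 and 21.3% in LSK of DKO mouse 2, against 18.4% and 21.5% of all genes. Of the 1287 genes higher in DKO 2 only, 41.4% were above WT in LSK of DKO mouse 2 and 19.3% in LSK of DKO mouse 1. Of the 638 genes lower in DKO 1 only, 27.4% were below WT in LSK of DKO mouse 1 and 20.8% in LSK of DKO mouse 2, against 13.5% and 18.02% of all genes. Of the 1127 genes lower in DKO 2 only, 36.5% were below WT in LSK of DKO mouse 2 and 18.1% in LSK of DKO mouse 1. Rnase12, for example, had 681.2 FPKM in LSK of DKO mouse 1 and 1.80 in LSK of DKO mouse 2. The difference DKO 1 minus DKO 2 correlated between MEP and LSK at a Pearson r of 0.576 and a Spearman rho of 0.407 across genes, which share mice and are not independent.

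Genes placed in both DKO MEP libraries were also placed in LSK. MEP and LSK of DKO mouse 1 correlated at 0.970, so for that mouse the LSK values are not a separate check. Of 1412 genes higher in both in MEP, 39.0% were higher in both in LSK, against 10.6% of all genes, and of 754 lower in both, 25.3% were lower in both, against 6.98%. Khdrbs3 and Gimap4 gave like values in both populations, with log2 differences of -3.18 and 5.44 in LSK. S100a8, in contrast, had 3340 and 2493 FPKM in DKO LSK against 823.8, 4389 and 760.1 in WT LSK, where WT replicate 2 was the highest library. When limma tested the DKO effect in LSK against that in MEP, paired by mouse, no gene passed an adjusted p of 0.05, with a smallest adjusted p of 0.0553 and 2813 of 11039 genes at an unadjusted p below 0.05. For Gata1 the LSK effect exceeded the MEP effect by 2.47 on the log2 scale (adjusted p = 0.232), and for Gata2 it was lower by 2.03 (difference -2.03, adjusted p = 0.0710). Where LSK and MEP of a DKO mouse are nearly alike, as in mouse 1, this contrast also returns the WT gap between LSK and MEP. A DKO effect particular to 1 fraction was thus not separated from that gap.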

How the data were processed

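PolyA RNA (per the labels) of sorted MEP and LSK was sequenced, and the authors deposited 1 FPKM table per cell type. Per the labels and the submitters' processing notes, STAR 2.5.1b, SAMtools 1.9, Cufflinks 2.2.1 and the mm9 build were used. How the deposited FPKM were scaled between libraries is not given in the sources used here, and depth is unknown. FPKM were converted to log2 after adding 1, and the tested genes, whose mean reached 1 FPKM in the 5 MEP libraries, were fitted with limma 3.58.1 (R 4.3.3, mean-variance trend). A gene was called at an unadjusted p below 0.05 and a fold change above 1.5, with Benjamini-Hochberg values over all tested genes beside it. Fold changes are on the log2(FPKM + 1) scale, which understates changes of low genes. Named genes are Bcor and Dnmt3a, the 10 called genes per direction with the largest smaller-of-both difference, the 5 leading genes of each one-library class, the 3 widest opposite genes per orientation, the 3 highest and up to 3 most changed called members of each list, Gata1, Gata2, Klf1 and the gate genes. Other list members were named after their values were seen. The gene lists, classes and libraries were chosen with earlier results of these data known. List symbols were matched through RefSeq synonyms, which renamed 6. LSK and MEP were paired by mouse. The procedure was tested on simulated data. Alternatives varied the pseudocount, filter, scaling, libraries, variance model, replicate block, p-value and fold. Plots used matplotlib 3.10.9 under Python 3.11.15. Some genes that the rule names are not reported here.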

Additional observations from a re-analysis of the deposited data

How the results depend on the processing

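The 20 leading genes of both classes kept direction and call in all 337 values over genes and alternatives. They were chosen in these same libraries for being called with the largest gaps, so these refits are not a separate check. The numbers of genes called higher and lower were 1651 and 1155, and ranged from 1106 to 2623 and from 819 to 1902 when each library was left out. Leaving out DKO 1 gave the highest of these, and leaving out DKO 2 gave 2507 and 1443. Calls with an adjusted p fell from 949 to 2 without WT replicate 1 and to 0 without WT replicate 2 or 3, where 1949, 1945 and 2309 genes passed the unadjusted p and the fold change. They fell to 35 with 1 variance per genotype and rose to 2879 in a fit of all 10 MEP libraries. A minimum of 5 FPKM gave 1052 called higher and 1019 lower. It gave 869 genes higher in both, 658 lower in both and 648 higher in DKO 1 only. Quantile normalization gave 1113 called higher and 2025 lower. It gave 962 genes higher in both, 1468 lower in both, 1099 lower in DKO 1 only and 504 on opposite sides. With 1 variance per genotype 1327 were called higher and 718 lower. With the adjusted p 558 were called higher and 391 lower. A fold change above 2 gave 1238 called higher and 332 lower, with 838 genes higher in both and 210 lower in both. It left 283 lower in DKO 1 only, 426 lower in DKO 2 only and 82 on opposite sides. The cause was not tested, except that a higher minimum and a stricter threshold pass fewer genes by construction. Leaving out WT libraries kept the classes at 1348 to 1559 higher in both, 747 to 926 lower in both, 1142 to 1185 and 615 to 694 in DKO 1 only, 1281 to 1317 and 1114 to 1175 in DKO 2 only and 331 to 343 opposite.

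The labels number DKO and WT libraries alike, but they come from different mice. The deviations of same-numbered libraries correlated at -0.04 and 0.05. The deviations of the DKO libraries mirror each other by construction. These correlations therefore cannot decide whether same-numbered libraries share more than a number. With the replicate block 1188 genes were called higher and 754 lower, and none passed an adjusted p.

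Among the deleted, lineage factor and gate genes, the differences that changed sign when 1 library was left out were those of Bcor (-0.25 to 0.18), Dnmt3a (-0.67 to 0.15), Gata1 (-1.40 to 0.33), Klf1 (-1.18 to 0.43), Slamf1 (-1.03 to 0.38) and Tfrc (-0.025 to 2.77), none of which was called. The 326 genes on opposite sides of WT change sign with the DKO library left out, by their definition, and so do other list members, such as Myb and Erg. Quantile normalization within each cell type gave 43.0% in place of 39.0% for genes higher in both MEP and LSK, and 48.2% in place of 42.8% for genes of DKO 1 found again in LSK of that mouse. Depth is unknown, so no counting error could be given for low values, and 250 of the tested genes had a listed 0 in at least 1 library.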

Other observations

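Loci named for miRNAs stood among the most extreme genes. Mir8116 had 456.1 FPKM in DKO 1 and was listed at 0 in the other 4 MEP libraries, and Mir703 had 370.0 FPKM in DKO 2 and was listed at 0 in the other 4. Mir8091 had 27.1 FPKM in DKO 2 and was listed at 0 elsewhere. Mir6340 had 71.6 FPKM in WT replicate 2 and 55.8 in DKO 2, was listed at 0 in DKO 1 and was close to 0 in the other WT libraries.

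Among the genes lower in DKO 2 only, Dkkl1, of the Dickkopf-like family, had 29.4, 44.6 and 27.8 FPKM in WT, 25.3 in DKO 1 and 3.32 in DKO 2. Scin, the actin-severing protein scinderin, had 9.99, 5.52 and 9.02 FPKM in WT, 6.26 in DKO 1 and 0.265 in DKO 2. Smco4 had 12.4 to 13.0 FPKM in WT, 15.4 in DKO 1 and 2.18 in DKO 2. Among those lower in DKO 1 only, Rec8, a meiotic cohesin subunit, had 25.6, 31.3 and 17.98 FPKM in WT, 5.31 in DKO 1 and 19.5 in DKO 2.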
